A study of Mus musculus with 2 samples.

Results

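The cells described here were microglia that carried genes of the disease-associated state together with RNA of the nucleus, sorted from the retinas of C57BL/6j pups at postnatal day (P) 17. A cell was selected if it had at most 20% mitochondrial UMIs (unique molecular identifiers, each standing for 1 captured transcript), 1 or more UMIs of Malat1, a long RNA kept in the nucleus, and 10 or more UMIs of the complement genes C1qa, C1qb and C1qc together. It also had to have 3 or more of the 7 genes Spp1, Fabp5, Igf1, Cst7, Gpnmb, Itgax and Lgals3 detected, and 0 UMIs of Mrc1, Plac8, Top2a and Mki67, which mark macrophages, monocytes and dividing cells. This left 113 of 2708 cells, 21 of 1449 in the room air (RA) library and 92 of 1259 in the oxygen-induced retinopathy (OIR) library.

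OIR is a model of proliferative retinopathy in which pups are kept in high oxygen and then returned to room air, so that retinal vessels are lost and abnormal vessels grow later. RA pups were the untreated controls. Retinal cells positive for CD11b and F4/80 were sorted by FACS, and 1 10x Genomics 3′ library was made per condition from pooled retinas, so there was no replicate and no test between conditions was possible. The 95% intervals in parentheses are exact and hold counting error only. How much retinas of other pups, or another preparation, would vary was not measured.

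Microglia are the resident phagocytes of the neural retina. In the homeostatic state they hold genes such as P2ry12 and Tmem119, sensors and surface proteins of the surveying cell. In the disease-associated state, known from degenerating and demyelinating tissue and from development, these genes are low, and genes of lipid uptake, lysosomes and secreted factors are high, in part through the lipid receptor Trem2. Spp1 (osteopontin) and Igf1 encode secreted factors, Fabp5 a fatty acid carrier, Cst7 an inhibitor of lysosomal proteases, Gpnmb a lysosomal membrane glycoprotein, Itgax the integrin CD11c, and Lgals3 the lectin galectin-3.

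Selected cells were a larger share of the OIR library than of the RA library. Of the cells within the mitochondrial limit they were 1.59% in RA (0.984% to 2.41%, 21 of 1324 cells) and 7.64% in OIR (6.20% to 9.29%, 92 of 1204 cells), a ratio of 4.82. The intervals of the shares do not overlap. Among Malat1-positive, C1q-positive cells free of the 4 excluding genes they were 2.81% of 748 RA cells (1.75% to 4.26%) and 24.5% of 376 OIR cells (20.2% to 29.1%). Each cell needed more than a few UMIs to pass, and the selected cells were deeper than the other microglia of their library. Their median was 14085 UMIs in RA (range 4338 to 18560) and 10858.5 in OIR (range 1060 to 31635), against 10249 and 7843 in the cells with 0 to 2 of the 7 genes. After every cell was thinned to 2000 UMIs the share was 0.451% in RA (0.147% to 1.05%, 5 of 1109 cells) and 3.92% in OIR (2.76% to 5.38%, 36 of 919 cells), with 318 RA and 329 OIR cells too shallow to enter. Of these thinned cells 4 of 5 in RA and 30 of 36 in OIR were members at full depth. The OIR share was thus the higher one at equal depth as well, though both were lower than at full depth.

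The number of the 7 genes found in a cell was higher in OIR, with intervals of the shares apart for 0 and for 2 to 6 genes and overlapping for 1 and 7. Among the 748 RA microglia, 417 had none of the 7 genes, 234 had 1, 76 had 2, 16 had 3, 3 had 4, and 1 each had 5 and 6. Among the 376 OIR microglia, 125 had none, 97 had 1, 62 had 2, 35 had 3, 27 had 4, 20 had 5, 8 had 6 and 2 had all 7. The step just outside the rule held 76 RA and 62 OIR cells, and the step just inside it 16 and 35, so most RA members lay at the limit. The excluding genes alone left out 33 RA and 124 OIR cells, of which 52 OIR cells had a Top2a UMI, 68 a Mki67 UMI and 73 a Mrc1 UMI.

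**Figure D1:**
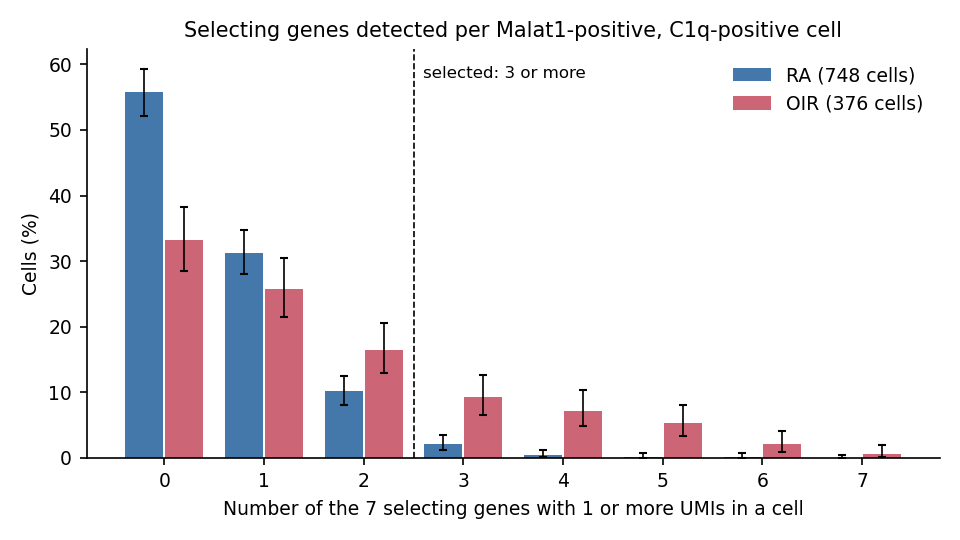
Share of Malat1-positive, C1q-positive microglia (y axis, % of cells) by the number of the 7 selecting genes with a UMI (x axis), in RA (748 cells, blue) and OIR (376 cells, red); whiskers are exact binomial 95% intervals and the dashed line marks the rule. RA cells sit mostly at 0 (55.7%), and the OIR bars are the taller ones at every step from 2 upward.

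The Malat1 condition divided the 2 libraries unequally. Of the cells that met all the other conditions, 21 of 24 in RA (87.5%, 67.6% to 97.3%) and 92 of 171 in OIR (53.8%, 46.0% to 61.4%) had a Malat1 UMI. Only 2 RA and 4 OIR members had a single Malat1 UMI, and the medians were 145 in RA and 84.5 in OIR. Scrublet called 9 RA and 5 OIR cells as doublets, under 1% of either library, and 0 of the 113 selected cells were among them. The libraries shared 0 cell barcodes.

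Of the genes behind the selection, Fabp5, Igf1 and Cst7 were the common ones in both libraries. Lgals3 and, with overlapping intervals of its shares, Spp1 were more frequent in OIR. The members were chosen by the UMIs of these genes, so their values are given as a description. Fabp5 was found in 16 RA and 75 OIR cells, at 346 and 404 CPM (UMIs per 1000000 UMIs of all genes, each group of cells taken as 1 sum). Igf1 was found in 16 RA and 68 OIR cells (207 and 295 CPM) and Cst7 in 16 and 67 cells (117 and 172 CPM). Itgax was found in 9 RA and 37 OIR cells, at 45.1 and 58.0 CPM. These 4 genes differed little in level between the conditions.

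Lgals3 was found in 7 RA cells (33.3%) and 71 OIR cells (77.2%), at 214 and 971 CPM. Spp1 was found in 6 RA cells (28.6%) and 47 OIR cells (51.1%), at 71.5 CPM (43.0 to 112) and 928 CPM (871 to 988). The Spp1 level came from few cells, since the top 5 OIR cells held 56.5% of its UMIs. Gpnmb was rare, with 9 UMIs in 1 RA cell and a UMI in 10 OIR cells, of which 1 held 54.3%. At 2000 UMIs per cell, Lgals3 was found in 19.0% of RA members (5.45% to 41.9%) and 53.9% of OIR members (43.0% to 64.6%). Spp1 was found in 14.3% (3.05% to 36.3%) and 29.2% (20.1% to 39.8%), and these intervals overlap. As background, rods thinned in the same way, which should lack these genes, held Fabp5 in 4.88% of the RA cells and 5.17% of the OIR ones, and each of the other 6 genes in at most 1.63%.

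Members were not alike in which genes they carried. The most frequent set in OIR was Spp1, Fabp5, Igf1, Cst7 and Lgals3 (11 cells), followed by the same set without Spp1 (9 cells). In RA the most frequent was Fabp5, Igf1 and Cst7 (5 cells), followed by these with Lgals3 (3 cells). With the OIR members split by each of the 7 selecting genes in turn, glycolytic genes were higher and homeostatic genes lower in cells with the gene for 5 of 7 genes, the exceptions being Cst7 and Itgax. Summed glycolytic genes were at 13149 CPM with a Lgals3 UMI (71 cells) and 7857 CPM without (21 cells), but at 11765 and 12434 CPM for Cst7 and 11531 and 12217 CPM for Itgax. For Gpnmb, counted among the 5, the glycolytic sums hardly differed. They were 11979 CPM with a UMI (10 cells) and 11914 CPM without (82 cells), and their intervals overlap. Summed homeostatic genes were at 28004 CPM with a Spp1 UMI (47 cells) and 37290 CPM without (45 cells), but at 33283 and 29373 CPM for Cst7 and 34948 and 30418 CPM for Itgax. Other disease-associated genes were lower with a Spp1 UMI (94333 and 102734 CPM) and with a Gpnmb UMI (82474 and 100105 CPM). They were higher with each of the other selecting genes, though hardly with Itgax (98490 and 98131 CPM). Lysosomal genes were lower with a Spp1 UMI as well (60553 and 66378 CPM). Cells with and without 1 of the selecting genes also differ in how many of the 7 they hold, which was not separated.

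The marker genes were those of microglia. All 14 microglia markers, of which the 3 C1q genes had chosen the cells, were detected in the members of both libraries. They summed to 40030 CPM in RA and 43869 CPM in OIR, with C1qb holding the most UMIs in OIR. The sums include C1qa, C1qb and C1qc, at 6450, 7492 and 5160 CPM in RA and 9220, 10086.5 and 7027 CPM in OIR. Much of each sum thus came from genes the rule used, and the sums do not compare the other markers between the libraries. The genes of the sort were frequent, with Itgam (CD11b) in 90.5% of RA and 92.4% of OIR members, Adgre1 (F4/80) in 95.2% and 93.5%, and Ptprc (CD45) in 95.2% and 85.9%. Some defining genes of other immune cells were at 0 UMIs in both libraries, among them Cd163 of macrophages, Ccr2 and Ly6i of monocytes, S100a8, S100a9 and Ly6g of neutrophils, and Cd3e, Cd3d and Cd79a of lymphocytes. The macrophage list holds Mrc1 and the monocyte list Plac8, both at 0 UMIs by the rule. Of 13 macrophage markers 5 had a UMI in RA members and 7 in OIR members, and of 12 monocyte markers 1 and 8. A monocyte marker UMI was found in 2 of 21 RA and 31 of 92 OIR members. The part of such transcripts in the results was not tested. Summed macrophage markers were at 184 CPM in RA and 267 CPM in OIR, mostly Stab1 (124 and 136 CPM). Summed monocyte markers were at 7.52 and 228 CPM, of which Fn1 made up 203 CPM in OIR.

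Transcripts of other retinal cells were present at low levels. Rod markers summed to 354 CPM in RA and 541 CPM in OIR, led by Gnb1 (233 and 300 CPM), a subunit that many cells express. Müller glia and astrocyte markers summed to 500 and 1066 CPM, with Glul (429 CPM) leading in RA and Vim (538 CPM) in OIR, while Clu and Car14 were at 0 in both. Lens markers summed to 218 and 279 CPM, cone markers to 124 and 82.3 CPM, neutrophil markers to 165 and 114 CPM, lymphocyte markers to 147 and 173 CPM, and markers of inner retinal neurons to 56.4 and 40.2 CPM. Endothelial markers were at 11.3 and 13.1 CPM, pericyte markers at 0 and 26.2 CPM, and red cell markers at 0 and 19.7 CPM. In the other microglia, rod markers were at 508 CPM in RA and 1024 CPM in OIR, sums to which few cells gave much, since 1 cell held 59.0% of the Sag UMIs in OIR. Per cell, the median of rod UMIs per 10000 was 2.80 in members and 2.67 in the other microglia of RA, and 3.44 and 3.29 in OIR.

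Some genes set the libraries as wholes apart and bear on every comparison of OIR with RA. Lyz2, the lysozyme gene of macrophages and activated microglia, was at 4.22 CPM in all RA cells (54 UMIs) and 1400 CPM in all OIR cells (13765 UMIs). Even in cells with a Plac8 and a Ptprc UMI Lyz2 was at 20.2 CPM in RA (62 cells) and 4013 CPM in OIR (99 cells), while Lyz1 there was at 226 and 175 CPM. Xist, a transcript of the inactive X chromosome, was at 493 CPM in all RA cells and 150 CPM in all OIR cells. With 1 library each, differences between animals or between library preparations cannot be told apart from the condition. Whole libraries held 12810892 UMIs in RA and 9835402 in OIR, and the members held 265901 and 1068656.

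Within the OIR library, members had higher levels of genes of the lists of lipid handling and glycolysis than the other Malat1-positive microglia, and lower levels of homeostatic genes. The 284 other cells met every other condition but had 0 to 2 of the 7 genes. Of 2775 genes with a mean level of 50 CPM or more over both groups, 45 were 2-fold or more higher in members (1.62%) and 27 were 2-fold or more lower (0.973%), and the median log2 ratio of all genes was -0.03. The 7 selecting genes and Malat1 are not among these genes.

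Lpl, a lipase that frees fatty acids from lipoproteins, was at 954 CPM in members and 204 CPM in the other cells (log2 ratio 2.22, 2.06 to 2.39), with a UMI in 80 of 92 and 135 of 284 cells. Plin2, which coats lipid droplets, was at 362 and 104 CPM (1.80, 1.56 to 2.04). Lipa, the lysosomal acid lipase, was at 208 and 101 CPM (1.03, 0.76 to 1.31). Of 11 lipid handling genes measured, these 3 were higher and 0 lower, with a median of 0.72. The lipid carrier Apoe, at 22499 and 19689 CPM, differed by 0.19 only.

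Of 33 other genes of the disease-associated state, 8 were 2-fold higher and 1 lower (median 0.64). Besides Lpl and Plin2, these included Mmp12, a macrophage elastase, at 153.5 and 3.54 CPM (5.44, 4.42 to 6.67), though it was found in 16 member cells and 3 others. Anxa2 and Capg, which bind membranes and actin ends, were at 197 and 44.3 CPM (2.16) and at 294 and 83.7 CPM (1.81). Csf1, a growth factor of microglia themselves, was at 364 and 152 CPM (1.26). The gene that was lower was Cd74 (206 and 628 CPM, -1.61), and 1 cell held 41.5% of its UMIs in the other microglia. A Cd74 UMI was found in a larger share of members (66.3%) than of the other cells (46.8%), but members were also deeper. In cells thinned to equal depth the shares were 27.0% (18.1% to 37.4%) and 22.1% (17.3% to 27.6%), and these intervals overlap. Many genes of this state were higher by less than 2-fold, such as the lysosomal genes Ctsd (12912 and 7552 CPM, 0.77), Cd68 (0.89) and Cd63 (0.86) and the ferritin genes Fth1 (15007 and 8149 CPM, 0.88) and Ftl1 (0.96). Trem2 was at 2491 and 2110 CPM (0.24).

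Few lysosomal genes passed 2-fold. Of 32 lysosome genes 1 was higher and 0 lower, with a median of 0.16. The cytoskeletal and matrix genes Vim (538 and 107 CPM, 2.33) and Fn1 (203 and 25.2 CPM, 3.01) were among the 10 largest ratios, with Tgfbi (138 and 37.2 CPM, 1.89). Fn1 was found in 27 of 92 members and 17 of 284 other cells. Fn1 is also on the list of monocyte markers, which summed to 228 CPM in members and 43.8 CPM in the other OIR microglia, with a UMI in 31 of 92 and 31 of 284 cells. Vim is on the list of Müller glia and astrocyte markers, which summed to 1066 and 815 CPM. The part of these cell types in the result was not tested.

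Glycolytic genes were higher in members as a list. Of 15 measured, 9 were 2-fold or more higher and 0 lower, with a median of 1.03. Tpi1 (615 and 212 CPM, 1.54), Pgk1 (568 and 209 CPM, 1.45), Pkm (1551 and 594 CPM, 1.39) and Gapdh (3622 and 1702 CPM, 1.09), which act in the later steps from triose phosphate to pyruvate, were all higher, and the lowest bound of their intervals was 1.02, that of Gapdh (1.02 to 1.15). The glucose transporter gene Slc2a1 was at 142 and 60.2 CPM (1.24). Ldha, which turns pyruvate into lactate, was at 790 and 427 CPM (0.89), and Ldhb was the lowest of the list (-0.42). Of 9 hypoxia response genes 3 were higher and 0 lower (median 0.50), namely Mif (240 and 68.6 CPM, 1.80), Bnip3 (181 and 58.4 CPM, 1.63) and Slc2a1. The 2 lists share Slc2a1.

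The promoters of many glycolytic genes carry the letters ACGTG, the core of the element that hypoxia-inducible factors bind. The windows, from RefSeq (GRCm38.p6), run from 250 bases before to 50 bases after each start site, and ACGTG was sought on both strands, where it also lies within every CACGTG. It was found in 17 of 25 glycolytic genes with a window (68.0%), in 5886 of 27025 genes in all (21.8%) and in 713 of the 2218 measured genes with a window (32.1%). Of the 7 selecting genes 6 had a window, and 0 of these held ACGTG, while TGACTCA, a binding sequence of AP-1, was found in Gpnmb and Itgax and in 5.95% of all genes. A match is a description of the letters and not of binding, and base composition was not compared between the sets. Glycolytic genes also had more windows (38 for 25 genes) than the measured genes (2846 for 2218) or all genes (32851 for 27025). A gene was counted if any window held a match. The 25 genes were not limited to the 15 glycolytic genes measured in OIR members and the other OIR microglia. Tpi1, with the largest ratio of these 15 (1.54), held 0 matches, as did Pfkl and Eno1, while Pgk1, Pkm and Gapdh held matches. A link between matches and ratios was not tested. The windows of Ldha and Pgk1 are shown as examples with several matches, 5′ to 3′ on the plus strand, with bases of ACGTG on either strand in capitals. The Ldha window shown is chr7:46845554-46845853, and its second window, at another start, held 0 matches. The Pgk1 window is chrX:106186850-106187149.
Ldha: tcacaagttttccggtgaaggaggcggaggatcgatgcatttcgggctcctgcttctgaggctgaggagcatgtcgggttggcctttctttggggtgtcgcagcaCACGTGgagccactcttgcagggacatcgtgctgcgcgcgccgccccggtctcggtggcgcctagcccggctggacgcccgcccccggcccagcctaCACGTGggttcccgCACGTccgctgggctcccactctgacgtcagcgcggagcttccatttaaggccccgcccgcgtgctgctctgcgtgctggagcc
Pgk1: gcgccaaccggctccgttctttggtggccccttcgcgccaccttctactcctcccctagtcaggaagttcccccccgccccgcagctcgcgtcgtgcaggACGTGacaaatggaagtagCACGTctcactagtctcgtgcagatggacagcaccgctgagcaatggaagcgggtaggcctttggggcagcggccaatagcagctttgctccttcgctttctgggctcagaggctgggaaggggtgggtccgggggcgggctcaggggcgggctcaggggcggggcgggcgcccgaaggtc

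Other lists showed few 2-fold differences. Of 15 secreted growth factors and matrix enzymes 3 were higher and 0 lower (median 0.20), among them Mmp12 and Csf1. Of 15 genes of the oxidative stress response 2 were higher (Gclm at 1.29 and Blvrb at 1.04) and 0 lower, with a median of 0.70. Of 17 cytokine and chemokine genes 1 was higher, Il1rn (163 and 54.9 CPM, 1.57), which encodes the interleukin-1 receptor antagonist, and the median was 0.09. Tnf was at 2014 and 2577 CPM (-0.36) and Il1b at 2553 and 2406 CPM (0.09). None of the 16 NF-kappaB feedback genes (median -0.27), 19 complement and phagocytosis genes (-0.03), 7 interferon response genes (-0.09) or 9 cell cycle genes (0.15) reached a 2-fold difference.

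Homeostatic genes were lower as a list but far from absent. Of 24 measured, 0 were 2-fold higher and 4 lower, with a median of -0.54. Tmem119 was at 188 CPM in members and 539 CPM in the other cells (-1.52, -1.74 to -1.30), Siglech at 182.5 and 460 CPM (-1.33), P2ry13 at 113 and 240 CPM (-1.08), and P2ry12 at 551 and 1143 CPM (-1.05). Tmem119 was still found in 61 of 92 members. Cx3cr1 (663 and 916 CPM, -0.47) and Csf1r (1507 and 2207 CPM, -0.55) differed less. Of the MHC class II genes, H2-Aa and H2-Eb1 were at 0 UMIs in members and at 298 and 288 UMIs in the other microglia, held by 4 and 5 cells, so they were measured only through those few cells. Cebpd, a transcription factor gene of acute responses, was at 43.0 and 144 CPM (-1.75), and 1 of 28 immediate-early and stress genes was lower (Rrad, -1.09).

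In OIR, the glycolytic and homeostatic lists differed in steps with the number of selecting genes found, also among cells outside the rule. Depth differed along the same steps, with medians of 6917 UMIs for none, 8583 for 1, 9372 for 2, 10657 for 3 and 12379 for 4. For 5 genes the median was 10965.5 UMIs. The part of depth in the steps was not tested. Summed glycolytic genes were at 5687 CPM in cells with none of the 7 genes, 5945 with 1, 7441 with 2, 10460 with 3, 11867 with 4 and 13367 with 5 or more. Homeostatic genes had the opposite order, from 47801 CPM with none through 38963 with 2 and 36189 with 3 to 29244 with 5 or more. Immediate-early and stress genes were also lower at each step, from 42126 CPM with none to 27522 with 5 or more. The same held for NF-kappaB feedback genes, from 14678 to 10554 CPM. Lysosomal genes had no such order, at 55141, 54391, 58413, 56660, 66915 and 66237 CPM. The largest step of the glycolytic list lay at the limit of the rule, between 2 and 3 genes, and that of the homeostatic list between 0 and 1 (41846 CPM). In RA, glycolytic genes were at 3170, 3188, 3809 and 5342 CPM for 0 to 3 genes, with 3 and 2 cells only behind the values for 4 (4464 CPM) and for 5 or more (7346 CPM), and homeostatic genes were at 55870 and 32889 CPM there. Per cell, the median of glycolytic UMIs per 10000 was 89.9 in OIR members (range 27.0 to 507) and 50.5 in the other OIR microglia, and 50.3 in RA members (range 21.4 to 87.0) and 31.0 in the other RA microglia.

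**Figure D2:**
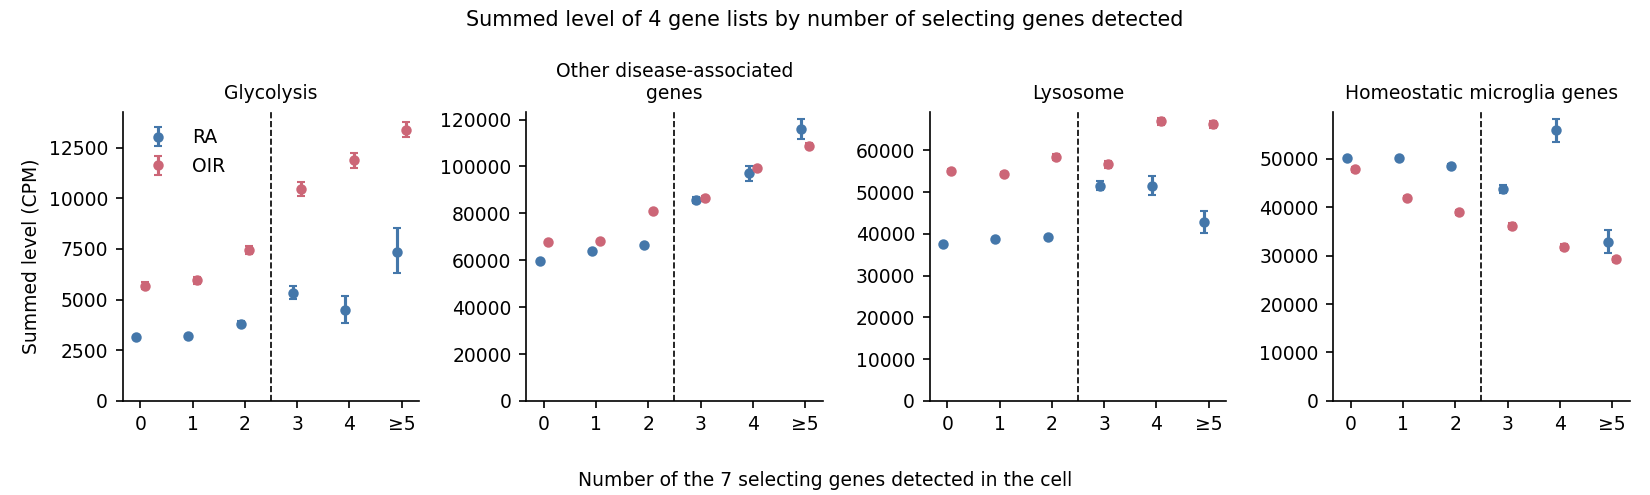
Summed level (y axes, CPM, from 0) of the glycolytic, other disease-associated, lysosomal and homeostatic gene lists against the number of the 7 selecting genes found in a cell (x axes), for RA (blue) and OIR (red); whiskers are exact Poisson 95% intervals and the dashed line marks the rule. In OIR the glycolytic list runs from 5687 to 13367 CPM and the homeostatic list from 47801 to 29244 CPM. The RA points for 4 and for 5 or more genes rest on 3 and 2 cells. Cells with more of the genes were mostly deeper, and this was not separated.

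In the RA library the same comparison rested on 21 members and 727 other cells. Of 2722 genes measured, 51 were 2-fold or more higher (1.87%) and 41 lower (1.51%), with a median over all genes of -0.04. With a rule of 2 or more genes, which takes in the 76 cells just outside, the counts were 2 and 3. Of 11 lipid handling genes 5 were higher and 0 lower (median 0.90), namely Lpl (275 and 87.7 CPM, 1.65, with a lower bound of 1.28), Apoc1 (1.36), Plin2 (1.27), Nceh1 (1.08) and Abcg1 (1.04). Of 31 lysosome genes 3 were higher and 0 lower (median 0.39), namely the tetraspanin gene Cd63 (1606 and 534 CPM, 1.59) and the cathepsin genes Ctsb (3411 and 1547 CPM, 1.14) and Ctsd (9060 and 4141 CPM, 1.13). Of 27 other disease-associated genes 8 were higher and 0 lower (median 0.61).

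Glycolytic genes were also higher in RA members, with 2 of 14 past 2-fold and 0 lower (median 0.80). These were Tpi1 (233 and 92.1 CPM, 1.34) and Gapdh (1437 and 672 CPM, 1.10), and Pkm was at 527 and 273 CPM (0.95). Of 24 homeostatic genes 0 were higher and 1 lower (Slc2a5, -1.02), with a median of -0.26, and P2ry12 was at 809 and 1492 CPM (-0.88) and Tmem119 at 316 and 561 CPM (-0.83). The largest single ratios rested on few cells, since 1 cell held 75.8% of the Slc7a11 UMIs (2.66) and all 36 of Il12b (1.92). More evenly spread were Slc48a1, a heme transporter gene (90.3 and 25.4 CPM, 1.83, in 14 of 21 members), Glipr1 (1.67), and Mif (256 and 86.9 CPM, 1.56). Lower genes were Txnip, an inhibitor of glucose uptake (18.8 and 94.6 CPM, -2.33), the transcription factor gene Klf2 (192 and 670 CPM, -1.80), Cebpd (-1.57) and Tsc22d3 (-1.49). Klf2 was at 1059 and 913 CPM (0.22) in OIR, so the level was lowest in the RA members.

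The remaining lists in RA had few or no calls. Of 15 cytokine and chemokine genes 2 were higher and 0 lower (median 0.34), of 15 oxidative stress genes 2 (0.53), of 10 hypoxia response genes 1 (0.51) and of 12 secreted factors 1 (0.15). Il12b and Slc7a11, which rested mostly on 1 cell each, are among the cytokine and oxidative stress genes counted. Of 29 immediate-early and stress genes 1 was lower (median -0.29). The 15 NF-kappaB feedback genes (-0.26), 19 complement and phagocytosis genes (0.08), 3 MHC class II genes and 5 interferon response genes had 0 calls. In cells thinned to 2000 UMIs the NF-kappaB feedback median was 0.15, from 5 RA members.

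The 2 libraries share no cells, and their ratios can be set side by side over the 2383 genes measured in both. Of the 45 genes higher in OIR members, 24 were measured in RA, and 24 of these were above 0 there, where 46.0% of all measured genes were. Of the 51 genes higher in RA members, 44 were measured in OIR and 42 were above 0 there, against 43.5% of all. Past 2-fold in both were 12 genes, 26.7% of the OIR list and 23.5% of the RA list, namely Lpl, Plin2, Mif, Slc48a1, Anxa5, Tpi1, Cstb, Prdx6, Uap1l1, Gapdh, Fxyd5 and Pld3. Of the 27 lower in OIR, 22 were measured in RA and 19 were below 0, against 54.0% of all, and of the 41 lower in RA, 33 were measured in OIR and 24 were below 0, against 56.5% of all. Cebpd alone was past 2-fold lower in both. Across genes, Pearson's r was 0.53 and Spearman's rho 0.50, as a description, since genes are not independent replicates and both ratios used the same selection by the same 7 genes.

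**Figure D3:**
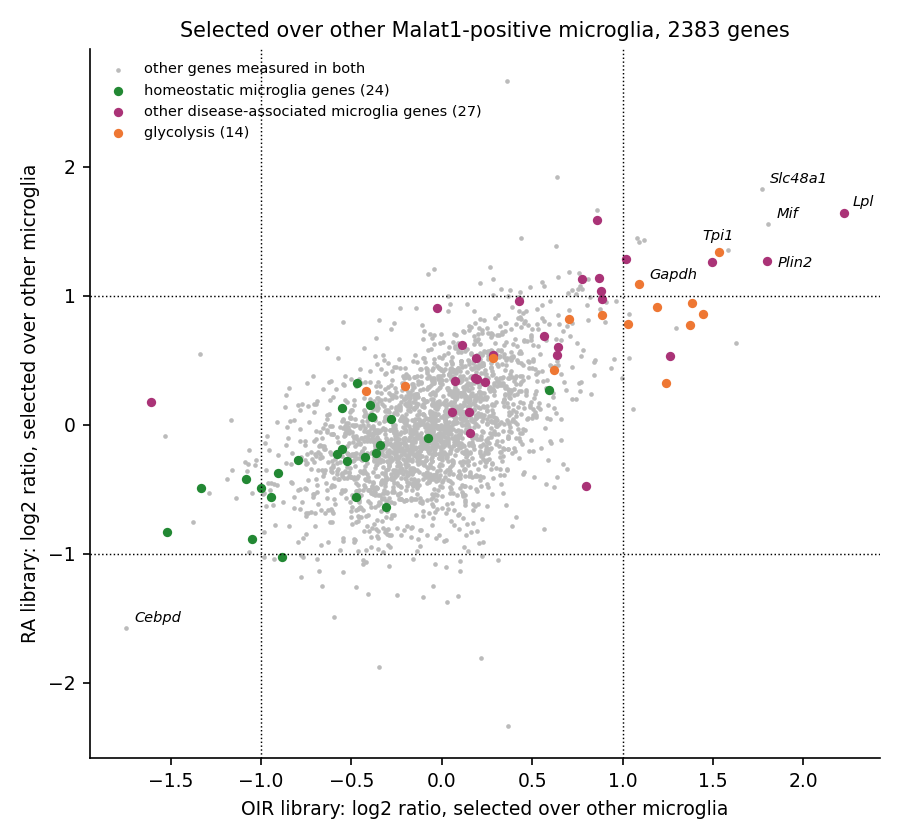
Log2 ratio of members over the other Malat1-positive microglia in the OIR library (x axis) and the RA library (y axis) for 2383 genes; homeostatic (24, green), other disease-associated (27, purple) and glycolytic genes (14, orange) are coloured, and dotted lines mark 2-fold. Lpl, Plin2, Mif, Slc48a1, Tpi1 and Gapdh lie past 2-fold in both libraries and Cebpd is low in both.

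Members from OIR differed from members from RA in many genes. Of 2762 genes measured in members, 206 were 2-fold or more higher in OIR (7.46%) and 208 lower (7.53%), with a median over all genes of 0.05. In the other microglia, of 2806 genes 68 were higher (2.42%) and 138 lower (4.92%), with a median of 0.08. The RA members gave 265901 UMIs from 21 cells, so single ratios are less exact in members. Of the 206 higher genes, 177 were measured in the other microglia, 174 had the same sign (58.3% of all genes measured in both were above 0) and 37 were also past 2-fold, with medians of 1.22 in members and 0.75 in the other cells. Of the 208 lower genes, 194 were measured there, 190 had the same sign (41.7% of all) and 109 were past 2-fold.

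Lyz2 was at 804 CPM in OIR members (859 UMIs, 83 of 92 cells) and at 0 UMIs in RA members, at least 71.2-fold higher against a floor of 3 UMIs in the RA group. In the other microglia it was at 518 and 0.133 CPM (1 UMI in RA), beside the difference of the whole libraries given above. Vim was at 538 and 11.3 CPM (5.58, 4.02 to 7.86), and 2.93 in the other microglia. Fn1 and Mmp12 were at 203 and 153.5 CPM in OIR and at 0 UMIs in RA, at least 18.0-fold and 13.6-fold higher, from 27 and 16 OIR cells. Cd72, an inhibitory receptor, was at 278 and 26.3 CPM (3.40, against 2.37 in the other microglia), Hcar2 at 3.91 (2.03 to 6.97, against 2.66) and Ptgs2, the cyclooxygenase-2 gene, at 2.89 (1.64 to 4.53, against 1.21). The selecting genes chose the cells, and their ratios are a description, at 3.70 for Spp1, 2.18 for Lgals3, 0.56 for Cst7, 0.51 for Igf1, 0.36 for Itgax and 0.22 for Fabp5. These 6 are among the 2762 genes, and Spp1 and Lgals3 among the 206.

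Glycolytic genes were higher in OIR within the members too. Of 16 measured, 11 were 2-fold higher and 1 lower (median 1.20), and in the other microglia 8 of 15 were higher and 0 lower (median 1.02). Pfkl, the liver-type phosphofructokinase gene, was at 187 and 37.6 CPM (2.32), Pgk1 at 568 and 128 CPM (2.15), Pgam1 at 772 and 203 CPM (1.93), Pkm at 1551 and 527 CPM (1.56) and Gapdh at 3622 and 1437 CPM (1.33). The hexokinase gene Hk2 was the exception, at 122 and 308 CPM (-1.34). In OIR members Gapdh was thus 3622 CPM, in RA members 1437 CPM, in other OIR microglia 1702 CPM and in other RA microglia 672 CPM, so that the RA members were near the unselected OIR microglia.

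Among 34 other disease-associated genes 10 were higher and 2 lower in OIR members (median 0.47, and 0.53 in the other microglia). They included Capg (2.70), Anxa2 (2.25), Lpl (954 and 275 CPM, 1.80), Plin2 (1.73), Hmox1, the heme oxygenase gene (3651 and 1170 CPM, 1.64) and Csf1 (1.55), and the adaptor gene Tyrobp (1213 and 3343 CPM, -1.46) and Cd52 (-1.20) were lower. Lyz2, which set the whole libraries apart, is also among the 10 higher genes. Of 15 oxidative stress genes 5 were higher and 0 lower (median 0.61, and 0.43 in the other microglia). In cells thinned to 2000 UMIs, of which RA had 5, the median in members was -0.47. Of 14 secreted factors 4 were higher (median 0.17, and 0.42), among them Gas6, a bridge between dying cells and phagocytes (390 and 90.3 CPM, 2.11). Of 23 homeostatic genes 1 was higher (Fcrls, 1.05) and 3 lower (median -0.60, and -0.18 in the other microglia). The lowest was the fractalkine receptor gene Cx3cr1 at 663 and 2527 CPM (-1.93), which was -1.14 in the other microglia, followed by Siglech (-1.35) and Ltc4s (-1.04).

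Inflammatory lists were mixed. Of 17 cytokine and chemokine genes 3 were higher (Ptgs2, Il1rn at 1.19, and Ccl2 at 2354 and 1053 CPM, 1.16) and 0 lower, with a median of 0.24 (0.64 in the other microglia). Tnf was at 2014 and 1700 CPM (0.24), Il1b at 2553 and 1681 CPM (0.60), and Ccl4, with the most UMIs of the list, at 6532 and 11049 CPM (-0.76). The summed list was lower in OIR, at 27235 and 31737 CPM (-0.22, -0.26 to -0.19), unlike its median. Of 29 immediate-early genes 1 was higher (Klf2, 2.47) and 5 lower, of 15 NF-kappaB feedback genes 1 was lower (Rel, -1.16), and of 22 complement and phagocytosis genes 2 were higher and 1 lower. The 3 C1q genes, which the rule used, are among these 22. The 32 lysosome genes had 0 calls (median 0.28, and 0.52 in the other microglia), and of 12 lipid handling genes 2 were higher and 1 lower (median 0.12, and 0.09). In cells thinned to 2000 UMIs, of which RA had 5, the cytokine median in members was -0.18 and the lipid handling median -0.26.

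Ribosomal protein genes were 4 of the 10 with the lowest ratios of OIR over RA. Rpl41 was at 445 and 2888 CPM (-2.70), Rps28 at 254.5 and 1651 CPM (-2.70), the mitochondrial gene mt-Nd3 at 388 and 2354 CPM (-2.60) and Lst1, the lowest of all, at 26.2 and 188 CPM (-2.84). Of 82 ribosomal protein genes 0 were higher and 44 lower in OIR members (median -1.11), and of 84 in the other microglia 48 were lower (median -1.21). Members differed from the other microglia of their own library in 0 of these genes past 2-fold, with medians of -0.07 in OIR and -0.17 in RA. Ribosomal protein genes summed to 70772 CPM in OIR members and 119924 CPM in RA members.

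**Figure D4:**
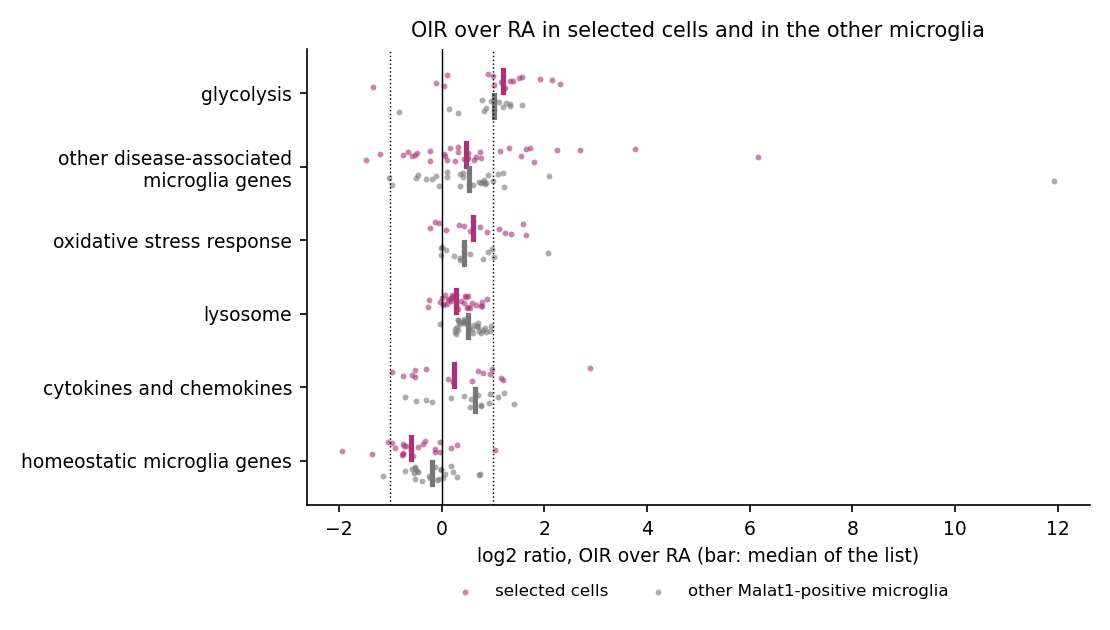
Log2 ratio of OIR over RA (x axis) for genes of 6 lists (y axis), in selected cells (purple) and in the other Malat1-positive microglia (grey); points are genes, bars are list medians and dotted lines mark 2-fold. The medians of the glycolytic list are 1.20 and 1.02, those of the homeostatic list -0.60 and -0.18, and the far point at the right is Lyz2 in the other microglia, where RA had 1 UMI, while Lyz2 and Mmp12 in members stand at the bound from a floor of 3 UMIs.

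The Malat1 condition also set the members apart from 79 OIR cells that met the rest of the rule with 0 Malat1 UMIs, and RA had 3 such cells, too few to compare. The Malat1-negative cells were shallower, with a median of 2954 UMIs, and fewer of them held genes of the sort (Ptprc in 19.0%, Itgam in 39.2% and Adgre1 in 51.9%). These shares were not taken at equal depth. By level, Ptprc was at 275 CPM in members and 63.1 CPM in the Malat1-negative cells, and Itgam at 385 and 155 CPM. Adgre1 was at 382 and 290 CPM, with overlapping intervals. Of 2509 genes measured, 481 were 2-fold or more higher in members (19.2%) and 91 lower (3.63%), with a median over all genes of 0.04. Other nuclear RNAs went with Malat1. Neat1 was at 1610 CPM in members (85 of 92 cells) and at 0 UMIs in the 79 cells, at least 170-fold higher against a floor of 3 UMIs, and Kcnq1ot1 and Xist were at least 17.7-fold and 17.1-fold higher.

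Short-lived inflammatory transcripts were much higher in members. Of 12 NF-kappaB feedback genes 11 were higher and 0 lower (median 3.37), of 17 cytokine and chemokine genes 14 were higher (3.01), and of 28 immediate-early and stress genes 26 were higher (2.38). Tnf was at 2014 and 161 CPM (3.65), Il1b at 2553 and 303 CPM (3.07), Ccl3 at 6393 and 836 CPM (2.93), Cxcl2 at 1008 and 37.9 CPM (4.73) and Nfkbia, the inhibitor of NF-kappaB, at 3634 and 499 CPM (2.87). Of 23 homeostatic genes 14 were higher and 0 lower (1.10), with Cx3cr1 at 663 and 183 CPM (1.86) and P2ry12 at 551 and 240 CPM (1.20). The members thus held more of both the inflammatory and the homeostatic transcripts than cells that met the rest of the rule without Malat1.

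Genes of iron storage, redox balance and glycolysis were lower in members than in these cells. Of 17 oxidative stress genes 3 were higher and 8 lower (median -0.96), with Hmox1 at 3651 and 18618 CPM (-2.35), Prdx1 at 1078 and 7303 CPM (-2.76), Fth1 at 15007 and 64617 CPM (-2.11) and Ftl1 at 18511 and 78498 CPM (-2.08). CPM values are shares of a group's total, which in the Malat1-negative cells includes these ferritin UMIs. Of 16 glycolytic genes 1 was higher (Pfkfb3, 2.42) and 7 lower (median -0.92), with Gapdh at 3622 and 8016 CPM (-1.15) and Pkm at 1551 and 3768 CPM (-1.28). Lysosome genes (32 measured, 1 higher, median 0.12), Apoe (22499 and 20732 CPM, 0.12) and Lpl (954 and 1092 CPM, -0.20) differed little. Of the genes that chose the cells, Spp1 was at 928 CPM in members and 3102 CPM in the Malat1-negative cells, Lgals3 at 971 and 2904 CPM, Fabp5 at 404 and 1379 CPM, Igf1 at 295 and 707 CPM and Cst7 at 172 and 341 CPM. Itgax (58.0 and 63.1 CPM) and Gpnmb (32.8 and 41.0 CPM) differed less, with overlapping intervals.

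**Figure D5:**
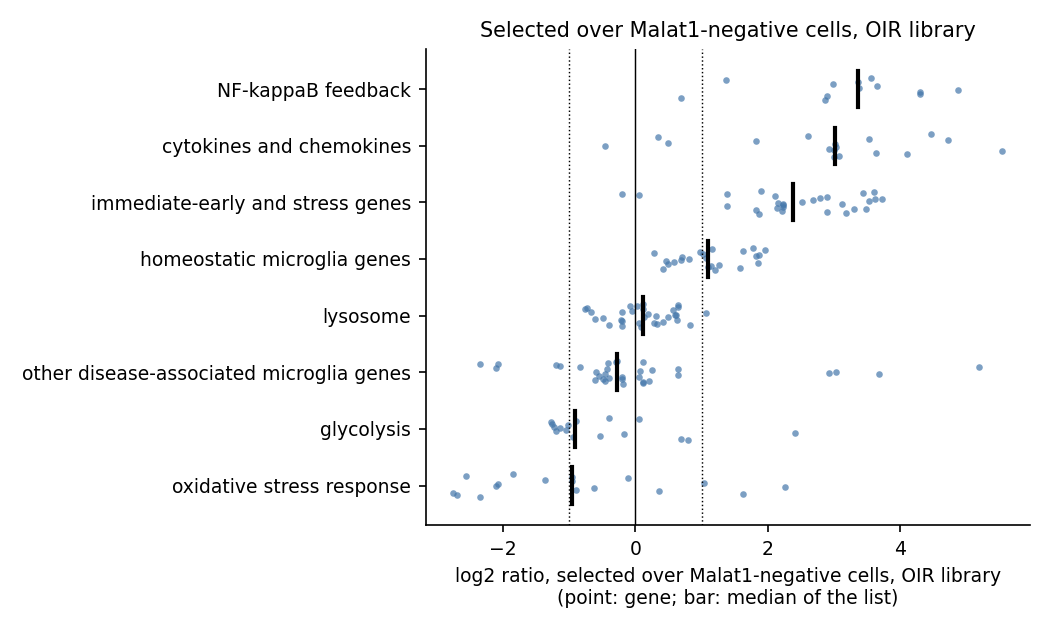
Log2 ratio of selected cells over Malat1-negative cells that met the rest of the rule in the OIR library (x axis) for genes of 8 lists (y axis); points are genes, bars are list medians and dotted lines mark 2-fold. NF-kappaB feedback, cytokine and immediate-early genes lie to the right (medians 3.37, 3.01 and 2.38), and oxidative stress and glycolytic genes to the left (-0.96 and -0.92).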

How the data were processed

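The authors deposited raw counts, 1 matrix of whole UMIs per gene and cell for each condition, made with Cell Ranger 3.1.0 according to the matrix header, with mm10 as the build in the submitters' processing notes. Neither matrix was normalized. Each group of cells was taken as 1 sum of UMIs per gene, scaled to its total (CPM). A gene was measured in a comparison if the mean CPM of both groups was 50 or more, and called if it differed by 2-fold or more. A group at 0 was set to 3 UMIs. Intervals at 95% were Poisson for levels, Clopper-Pearson for shares and conditional for ratios, and the calculations were tested on simulated data. Cells are not replicates, and no p-value was computed. The members and gene lists were chosen with earlier results of these data known. Named were the selecting genes, the 10 largest and smallest ratios of a comparison and the leading genes of each list, and further genes of the lists were named after their values were seen. Alternatives changed the limits of the rule, depth, scaling and the minimum CPM. Doublets were called with Scrublet (scanpy 1.11.5) and kept. Python 3.11.15, numpy 2.4.6, scipy 1.17.1, pandas 2.3.3 and matplotlib 3.10.9 were used. Some genes are not reported here.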

Additional observations from a re-analysis of the deposited data

How the results depend on the processing

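The OIR share exceeded the RA share under all 15 alternatives tried, with a ratio from 1.75 (2 or more of the 7 genes) to 12.5 (4 or more). The share itself was 7.33% in RA and 12.8% in OIR with 2 or more genes, 0.378% and 4.73% with 4 or more, 0.378% and 3.99% where a gene needed 2 UMIs, and 0.451% and 3.92% in thinned cells. It was 5.90% in OIR without Lgals3, 9.68% with at least 2000 UMIs per cell, 9.52% without cells over 1% rod UMIs, and 2.81% and 24.5% of Malat1-positive, C1q-positive cells. Without the excluding genes, an alternative chosen after seeing the data, it was 4.08% and 17.9%.

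Counts of genes past 2-fold moved with the number of cells and the minimum level. For OIR over RA they were 384 higher and 406 lower with 4 or more genes, 317 lower at 2 UMIs, 1604 lower in thinned cells, 865 and 759 at 10 CPM, and 41 and 78 at 200 CPM. For members over the other OIR microglia they were 16 lower with 2 or more genes, 64 lower with 4 or more, 71 and 73 at 2 UMIs, 302 and 237 in thinned cells, 19 and 3 without the excluding genes, 76 higher as a mean over cells, 194 and 199 at 10 CPM, and 12 and 5 at 200 CPM. For RA they were 2 and 3 with 2 or more genes, 261 and 262 with 4 or more, 291 and 308 at 2 UMIs, 1625 and 125 in thinned cells, 83 and 0 without the excluding genes, 389 and 497 at 10 CPM, and 7 and 2 at 200 CPM. Against Malat1-negative cells they were 215 lower in thinned cells, 1945 and 307 at 10 CPM, and 98 and 34 at 200 CPM. The causes were not tested beyond the fewer cells or genes that an alternative leaves.

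Of 683 values of 36 list medians, 622 stayed within the limits set and 61 moved, and 29 medians never changed sign, while 12 values did, 5 of them cytokines in OIR members (0.09 as reported, -0.48 in thinned cells). For OIR over RA, the oxidative stress median was 0.61 as reported and -0.47 in thinned cells, of which RA had 5. The glycolytic median ranged from 0.58 to 1.52 in OIR members, 0.23 to 1.34 in RA members, 0.96 to 1.58 for OIR over RA, and -1.06 to -0.27 against Malat1-negative cells. The homeostatic median ranged from -0.74 to -0.49 in OIR and -0.87 to -0.16 in RA. For OIR over RA it was -0.60 as reported and ranged from -0.78 to -0.02, the last in thinned cells. Leaving out genes of which 1 cell held most UMIs was also chosen after seeing the data. No paired analysis was possible because each condition has 1 library. The 21 RA members limit every RA value, and intervals cover counting error alone.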

Other observations

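More lists can be compared between members and the Malat1-negative OIR cells that met the rest of the rule, where 19.2% of all genes were 2-fold or more higher in members and 3.63% lower. Of 18 complement and phagocytosis genes 8 were 2-fold or more higher in members and 0 lower (median 0.89). Mertk, a receptor for dying cells, was at 185 and 18.9 CPM (log2 ratio 3.29, 2.14 to 4.75), the integrin gene Itgav at 137 and 12.6 CPM (3.44), and Cd14, a receptor for bacterial lipids, at 3239 and 704 CPM (2.20). Of 15 secreted factors and matrix enzymes 5 were higher and 2 lower (median 0.60), with Csf1 at 364 and 28.4 CPM (3.68), Osm at 222 and 18.9 CPM (3.55) and Pdgfb at 272 and 50.5 CPM (2.43), but Mmp12 at 153.5 and 647 CPM (-2.08). Of 11 lipid handling genes 4 were higher and 0 lower (median 0.12), among them Abca1 at 247 and 50.5 CPM (2.29), and the median was -0.07 with 2 or more of the 7 genes and -0.21 at 200 CPM. Of 11 hypoxia response genes 1 was higher and 3 lower (median -0.31). Mif (240 and 543 CPM, -1.18) and Bnip3 (181 and 388 CPM, -1.10) were lower and Hif1a was higher (160 and 63.1 CPM, 1.34).

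Between the conditions, where 7.46% of all genes were higher in OIR members and 7.53% lower, Cd14 was at 3239 CPM in OIR members and 1354 CPM in RA members (1.26, 1.10 to 1.42), and Stmn1, a microtubule regulator of dividing cells, at 124 and 30.1 CPM (2.05, 1.03 to 3.29), from 8 UMIs in RA. Stmn1 was the 1 gene of 9 measured cell cycle genes past 2-fold, in cells chosen to lack Top2a and Mki67 UMIs. Of 5 interferon response genes (median -0.05) and 4 MHC class II genes (median 0.41) 0 were past 2-fold in members. Malat1 itself was at 7565 CPM in OIR members and 14280 CPM in RA members (-0.92), and Neat1 at 1610 and 1452 CPM (0.15, -0.01 to 0.31).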
